A study of Mus musculus with 17 samples.

Results

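The microRNAs miR-1 and miR-133a are cut from long noncoding host transcripts, and the rows of the deposited tables at the 2 genomic loci of these hosts are described here. Members were all rows whose position overlaps 180105000 to 180145000 on chromosome 2 or 10770000 to 10795000 on chromosome 18, in the coordinates of the files, which are taken to be the mouse assembly mm9. Of 23940 rows, 5 met this rule, 4 on chromosome 2 and 1 on chromosome 18. The study measured long noncoding RNA by strand-specific, paired-end sequencing of total RNA from the ventricles of newborn male C57Bl/6 mice. The left (LV) and right (RV) ventricles were each taken on the day of birth (P0, with the ductus arteriosus still open), at day 3 (P3) and at day 7 (P7, by which time most cardiomyocytes are terminally differentiated). Each group held 3 libraries, except RV at P7 with 2, or 17 in all, and the labels call them biological replicates without saying whether animals were pooled or gave both ventricles. No treatment or genetic change is named. The tables carry identifiers without gene names, so defining heart markers could not be looked up by name.

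miR-1 and miR-133a are among the most abundant microRNAs of heart and skeletal muscle. A copy of each sits in the same primary transcript at both loci, and the transcription factors SRF and MEF2 drive these transcripts in muscle cells. miR-1 is known for promoting muscle differentiation, and miR-133a for holding back cell division and smooth muscle genes in the heart. Mature microRNAs are far shorter than the features of these tables: 0 rows with a position span under 150 bases. The values below are therefore levels of long transcripts at the loci, not of the mature microRNAs.

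On chromosome 2 the label of the locus could be checked against an annotation without moving any position between assemblies. The row NONMMUT041832, at 180120309 to 180136507, spans 16199 bases, exactly the length of Mir1a-1hg, the host gene of miR-1a-1 and miR-133a-2, in RefSeq on GRCm38.p6. It is called the host row below. In that annotation the Mir1a-1 hairpin begins 3.44 kb and the Mir133a-2 hairpin 12.8 kb after the start of Mir1a-1hg. The row TCONS_00033952, at 180125911 to 180126602, is 692 bases long and lies 5.60 to 6.29 kb after the start of the host row, between the places of the 2 hairpins. It is called the fragment row. NONMMUT041831 (180105196 to 180121156) and TCONS_00036682 (180105196 to 180121284) start 15113 bases before the host row, and B230312C02Rik, a long noncoding gene of the opposite strand, starts 15113 bases before Mir1a-1hg in GENCODE release M21. These 2 rows share 848 and 976 bases with the start of the host row, and the fragment row lies wholly inside it. The tables list neither strand nor exons, so how reads in these overlaps were divided is unknown.

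**Figure D1:**
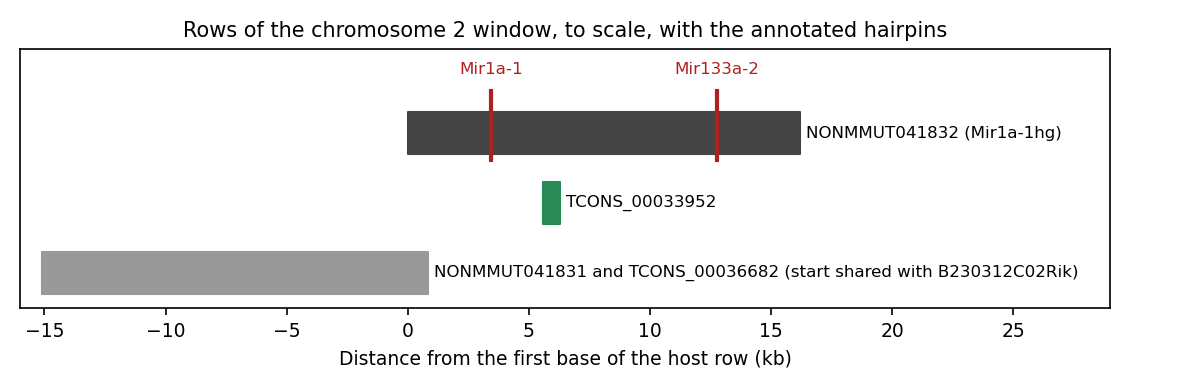
Rows of the chromosome 2 window by distance from the first base of the host row (horizontal axis, kb), with the annotated starts of the 2 hairpins as red lines. The fragment row lies between the hairpins, and the bar of NONMMUT041831 and TCONS_00036682 is drawn to the end of the first.

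The 5′ mature strand of miR-1a-1 is shown because it is the mature microRNA of the host row that the RefSeq table (GRCm38.p6) lists; miR-1a-3p and miR-133a are named only. Capitals mark bases 2 to 8, the seed of each strand shown. The 5′ strand of miR-206, a relative found mainly in skeletal muscle, is given beneath it for comparison, and the 2 differ at 3 of 23 bases, 1 of them in the seed. This holds for the 5′ strands only: the 3′ strands, miR-1a-3p among them, were not compared, and their seeds may be alike.
mmu-miR-1a-1-5p: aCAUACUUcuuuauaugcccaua
mmu-miR-206-5p: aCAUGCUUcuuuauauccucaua
The first is at chr2:180389057-180389079 and the second at chr1:20679017-20679039, both on the plus strand of GRCm38.p6.

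The promoter of Mir1a-1hg, a window of 300 bases that holds its start, is shown because the start of the host row and that of the annotated gene coincide by length. It lies at chr2:180385354-180385653 on the plus strand of GRCm38.p6, from RefSeq.
Mir1a-1hg promoter: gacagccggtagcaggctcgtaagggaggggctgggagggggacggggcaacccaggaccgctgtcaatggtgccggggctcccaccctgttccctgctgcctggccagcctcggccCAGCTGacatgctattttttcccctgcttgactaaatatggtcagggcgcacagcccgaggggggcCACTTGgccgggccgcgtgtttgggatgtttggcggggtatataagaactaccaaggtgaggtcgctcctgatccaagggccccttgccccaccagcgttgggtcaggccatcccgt
Capitals mark 2 matches to the E-box CANNTG, the motif of MyoD and related factors, which 72.3% of 32851 promoters of the same length hold on either strand. The SRF motif (CArG box) had 0 exact matches on either strand (1.63% of promoters hold one) and the MEF2 motif 0 (3.19%). The exact letters AGATAA, for GATA factors, had 0 (11.2%) and TATAAA, for the TATA box, had 0 (13.6%). Near forms were not counted: the sequence holds TATATAAG, which resembles a TATA box, and CTAAATATGG, which resembles a CArG box. So these counts do not show that the promoter lacks such elements.

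On chromosome 18 the single row, NONMMUT031462, at 10777911 to 10780127, is 2217 bases long. It is too short to hold both hairpins, since in RefSeq the stretch from the first base of Mir133a-1 to the last of Mir1a-2 is 2644 bases. The label of this row as a host was examined by distances. A row of the same length as 4930563E18Rik (4973 bases) lies to its left, and the distance from there to the row NONMMUT031477 on its right is 291856 bases, the same as from 4930563E18Rik to 9130001E16Rik in RefSeq. If the stretch between is equal in both assemblies, the row shares 1824 bases with RefSeq's Mir133a-1hg and ends 2780 bases before the Mir133a-1 hairpin. So the distances place it at one end of the annotated host and outside both hairpins, and it is called the chromosome 18 row. The locus lies inside the coding gene Mib1, and the tables give no strand.

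All 5 rows were low. The implied depth was 13.8 to 20.5 M fragments per library, and the share of rows at 0 was 34.1% to 49.2% per library, with RV P3 replicate 2 at the shallow end of the first range and the high end of the second. Averaged over 17 libraries the level, in FPKM (fragments scaled for transcript length and library size), was 0.371 in the fragment row, 0.263 in the chromosome 18 row and 0.193 in the host row, higher than in 85.2%, 81.1% and 77.4% of all rows. The median row of the tables averaged 0.0301 FPKM. Among the 11079 rows that reached 0.1 FPKM in at least 2 libraries, the median was 0.183 FPKM. There the fragment row, the chromosome 18 row and the host row were higher than 68.0%, 59.1% and 51.3%. Lengths were chosen so that the values fell on steps of 0.5 fragments, which gave 691 bases for the fragment row and 2214 for the chromosome 18 row, within a few bases of their spans. With these lengths the fragment row rested on 0.5 to 12.5 fragments per library and the chromosome 18 row on 2 to 23. For the host row the shortest length found was 2018 bases, but whole multiples of it fall on the steps as well. Its transcript length is therefore not settled, and the 1.5 to 15 fragments per library that this length gives are a lower limit.

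The host row had its highest group mean at P0 in both ventricles, with wide spread between libraries. In LV it measured 0.362, 0.195 and 0.296 FPKM in the 3 libraries of P0, 0.396, 0.0522 and 0.221 at P3, and 0.0418, 0.149 and 0.190 at P7. In RV it measured 0.139, 0.372 and 0.205 FPKM at P0, 0.203, 0.0719 and 0.104 at P3, and 0.178 and 0.106 at P7. The LV P7 libraries all lay below the LV P0 libraries, by a narrow margin, while LV P3 held both a value above all LV P0 libraries and one below all but 1 LV P7 library, and the RV ages overlapped. Group means were 0.284 ± 0.0841, 0.223 ± 0.172 and 0.127 ± 0.0768 FPKM in LV at P0, P3 and P7 (SD, n = 3 each), and 0.238 ± 0.120 and 0.126 ± 0.0685 (SD, n = 3 each) and 0.142 ± 0.0509 (SD, n = 2) in RV. Its lowest values, 0.0418, 0.0522 and 0.0719, came from LV P7 replicate 1, LV P3 replicate 2 and RV P3 replicate 2, libraries with 48.7%, 44.5% and 49.2% of rows at 0. LV P7 replicates 2 and 3 and RV P7 replicate 1, with 47.9%, 47.6% and 48.0% of rows at 0, read 0.149, 0.190 and 0.178 FPKM. The part of this share in the result was not tested.

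The fragment row, between the 2 hairpins, had its highest group mean at P3. In LV it measured 0.422, 0.0948 and 0.196 FPKM at P0, 0.962, 0.343 and 0.565 at P3, and 0.406, 0.0435 and 0.0794 at P7. In RV it measured 0.0810, 0.780 and 0.199 FPKM at P0, 0.519, 0.472 and 0.477 at P3, and 0.400 and 0.271 at P7. All 3 RV P3 libraries were close together, whereas those of RV P0 were widely spread and included 1 value above them, in replicate 2. The highest P3 values, 0.962 in LV and 0.519 in RV, came from replicate 1 of each ventricle. Those libraries had 34.5% and 34.1% of rows at 0, while RV P3 replicate 2, with 49.2%, read 0.472. The part of this share in the result was not tested. Over both ventricles the P0 libraries averaged 0.296 ± 0.267 FPKM (SD, n = 6), the P3 libraries 0.556 ± 0.212 (SD, n = 6) and the P7 libraries 0.240 ± 0.172 (SD, n = 5), and the ranges of P0 and P3 overlapped. In fragments this was 22 in all at P0, 41 at P3 and 15 at P7.

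The other 2 rows on chromosome 2, tied to B230312C02Rik only by the distance of their start from the host row, were at the edge of detection. NONMMUT041831 was above 0 in 4 of 17 libraries with a highest value of 0.0557 FPKM, and TCONS_00036682 in 3 of 17 with a highest value of 0.0365 FPKM. At P7 both were listed at 0 in every library. Neither reached the level needed for testing, 0.1 FPKM in at least 2 libraries, so 3 of the 5 rows were tested.

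The chromosome 18 row had its highest group mean at P0 in both ventricles. In LV it measured 0.275, 0.311 and 0.539 FPKM at P0, 0.120, 0.178 and 0.252 at P3, and 0.292, 0.109 and 0.174 at P7. In RV it measured 0.341, 0.311 and 0.572 FPKM at P0, 0.174, 0.0655 and 0.190 at P3, and 0.187 and 0.375 at P7. Every P3 library of either ventricle lay below every P0 library, at 0.0655 to 0.252 against 0.275 to 0.572 FPKM, and the P7 libraries overlapped both. In fragments this was 93 in all at P0 and 39 at P3, with 6 libraries each, and 45.5 at P7 with 5. Because ventricle tissue was sequenced in bulk, fewer cells of a type and less RNA per cell cannot be told apart here or below.

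**Figure D2:**
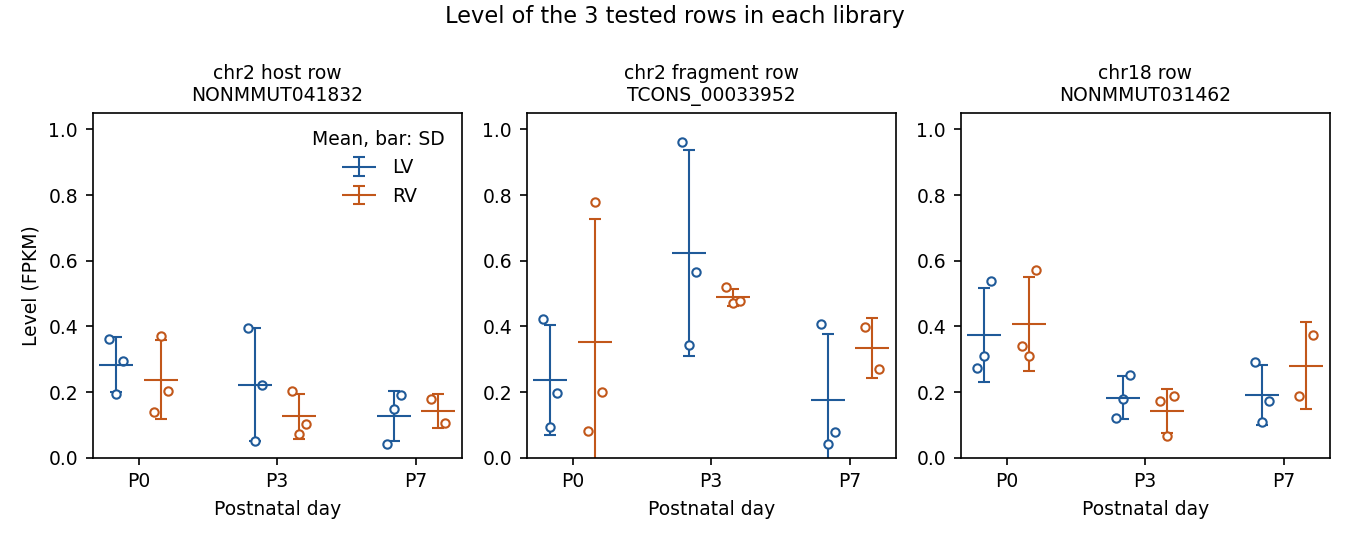
Level (vertical axis, FPKM) of the host row, the fragment row and the chromosome 18 row at P0, P3 and P7 in LV (blue) and RV (orange). Circles are libraries, the line is the mean and the bar the SD, cut off at 0; the mean of the fragment row is highest at P3 and that of the chromosome 18 row at P0.

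Within either ventricle, no change of these rows with age passed the test. With limma on log2(FPKM + 0.1), fitted to all 11079 rows tested, 0 of 3 rows were called at a Benjamini-Hochberg adjusted p under 0.05 between P3 and P0 in LV, where 1.89% of all tested rows were called, and 0 of 3 in RV, where 2.46% were. Between P7 and P0 it was 0 of 3 in LV against 11.2% of all rows, and 0 of 3 in RV against 5.55%. Between P7 and P3 it was 0 of 3 in each ventricle, against 1.34% in LV and 0.74% in RV. With 3 rows, these counts of 0 say little beside the background. Over these 6 comparisons and the 5 of the ventricles below, 2 of 33 pairs of a row and a comparison had an unadjusted p under 0.05. These were the fragment row in LV between P3 and P7, and the chromosome 18 row in RV between P0 and P3.

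The changes by ventricle were as follows, on the log2(FPKM + 0.1) scale, which understates the change of low rows. The chromosome 18 row changed from P0 to P3 by -0.73 ± 0.37 in LV and -1.07 ± 0.37 in RV (SE; limma adjusted p = 0.453 and 0.162), and from P0 to P7 by -0.71 ± 0.37 and -0.43 ± 0.42 (SE; adjusted p = 0.228 and 0.620). The host row changed from P0 to P3 by -0.38 ± 0.43 and -0.56 ± 0.43 (SE; limma adjusted p = 0.789 and 0.609), and from P0 to P7 by -0.80 ± 0.43 and -0.44 ± 0.48 (SE; adjusted p = 0.242 and 0.664). The fragment row changed from P0 to P3 by 1.13 ± 0.54 and 0.70 ± 0.54 (SE; limma adjusted p = 0.420 and 0.618), and from P0 to P7 by -0.40 ± 0.54 and 0.25 ± 0.61 (SE; adjusted p = 0.677 and 0.874). From P0 to P3 each row had the same sign in both ventricles. None of these changes exceeded 3 times its standard error, and single libraries weighed heavily: dropping RV P0 replicate 1 brought the fragment row's P0 to P3 change in RV to 0.20, and dropping replicate 2 of that group brought it to 1.34.

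Averaging the change over both ventricles in the same fit, a comparison added after the values were seen, the chromosome 18 row fell from P0 to P3. Its log2 change was -0.90 ± 0.26 (SE; limma adjusted p = 0.0459), lower in 6 of 6 P3 libraries than in any P0 library. It was 1 of 3 rows called, where 6.48% of all tested rows were. The fit took LV and RV libraries as independent, so the adjusted p is too small if those of one replicate number share animals. The call is at the threshold: it was lost without any 1 of the 12 libraries (adjusted p = 0.0511 to 0.125, log2 change -0.99 to -0.77), including RV P3 replicate 2 (adjusted p = 0.111). The host row changed by -0.47 ± 0.30 and the fragment row by 0.91 ± 0.39 (SE; limma adjusted p = 0.431 and 0.187). The fragment row's change ran from 0.66 without RV P0 replicate 1 (limma adjusted p = 0.393) to 1.23 without RV P0 replicate 2 (adjusted p = 0.0473), and the latter was the only 1 of 12 such fits in which it was called.

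Between P7 and P0, averaged in the same way, 0 of 3 rows were called, where 20.5% of all tested rows were, and between P7 and P3 0 of 3, where 4.36% were. From P0 to P7 the host row changed by -0.62 ± 0.32, the chromosome 18 row by -0.57 ± 0.28 and the fragment row by -0.08 ± 0.41 (SE; limma adjusted p = 0.184, 0.159 and 0.917). Over all tested rows the median change from P0 to P7 was -0.29, and with libraries scaled to equal medians the host row changed by -0.32 and the chromosome 18 row by -0.27. From P3 to P7 the fragment row changed by -0.99 ± 0.41, the host row by -0.15 ± 0.32 and the chromosome 18 row by 0.33 ± 0.28 (SE; limma adjusted p = 0.185, 0.837 and 0.544). The corresponding median over all rows was -0.22.

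**Figure D3:**
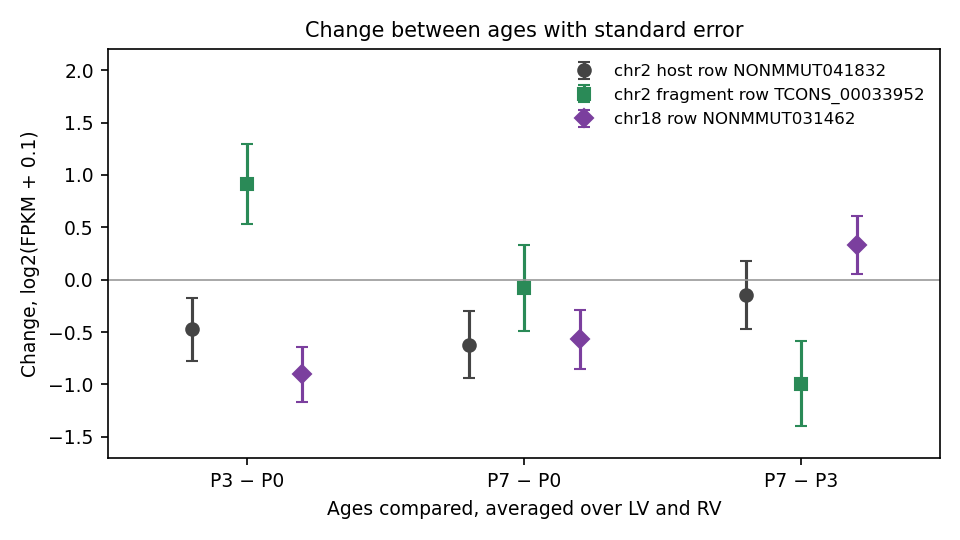
Change between ages averaged over both ventricles (vertical axis, difference of log2(FPKM + 0.1)) of the 3 tested rows, with standard errors. From P0 to P3 the fragment row is at 0.91, and the host row at -0.47 and the chromosome 18 row at -0.90.

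Within the chromosome 2 locus, the fragment row gained on the host row, whose span contains it, between P0 and P3. The log2 ratio of fragment row to host row within a library averaged -0.06 ± 0.55 over the 6 P0 libraries and 1.33 ± 0.30 over the 6 P3 libraries (SD). It ran from -0.60 to 0.90 at P0 and from 1.03 to 1.73 at P3, so all P3 libraries lay above all P0 libraries. The difference, averaged over ventricles, was 1.39, with 1.51 in LV and 1.26 in RV. An exact two-sided permutation test of age within ventricle gave p = 0.005, the smallest it can give (0.015 adjusted over 6 such ratio tests). The test was added after these values were seen, so its p restates the separation and is not separate evidence for it. Without RV P3 replicate 2 the difference was 1.31 (exact permutation p = 0.01). With the 2 ages fully apart, leaving out 1 library could hardly raise the p, so this p is no further check. At P7 the ratio was 0.41 ± 1.13 (SD, n = 5), and the libraries spread from -0.80 to 1.84. The difference between P7 and P3 was -0.84 (exact permutation p = 0.11, adjusted 0.165). These tests permuted LV and RV libraries independently of each other. Over all tested rows, LV and RV libraries of one age and replicate number correlated at 0.05 to 0.17, and those of different number at -0.13 to 0.03. The labels do not say whether such libraries share animals, and if they do, the p-values here are too small.

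Compared between loci, the fragment row on chromosome 2, the row with the highest mean there, rose relative to the chromosome 18 row from P0 to P3 and fell back by P7. The log2 ratio averaged -0.51 ± 1.03 over the 6 P0 libraries, 1.30 ± 0.61 over the 6 P3 libraries and -0.07 ± 0.62 over the 5 P7 libraries (SD). P3 libraries ran from 0.67 to 2.27 and overlapped the P0 range of -1.29 to 1.10, through RV P0 replicate 2 alone. The difference between P3 and P0 was 1.81, with 1.85 in LV and 1.77 in RV (exact two-sided permutation test, p = 0.01, adjusted 0.02). Between P7 and P3 it was -1.32 (exact permutation p = 0.005, the smallest it can give, adjusted 0.015). Between P7 and P0 it was 0.49 (exact permutation p = 0.41, adjusted 0.492), with 0.20 without RV P7 replicate 1 and 0.88 without RV P0 replicate 2. The tests between P3 and the other ages, and both tests within chromosome 2, were added after the values were seen, and the comparisons share libraries. LV and RV libraries were again permuted independently, so the p-values between ages carry the same limit as those within chromosome 2.

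With the host row in place of the fragment row, no difference between loci passed the test. The P3 against P0 difference from the chromosome 18 row was 0.43 (exact permutation p = 0.3), P7 against P3 -0.48 (exact permutation p = 0.315) and P7 against P0 -0.05 (exact permutation p = 0.91).

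**Figure D4:**
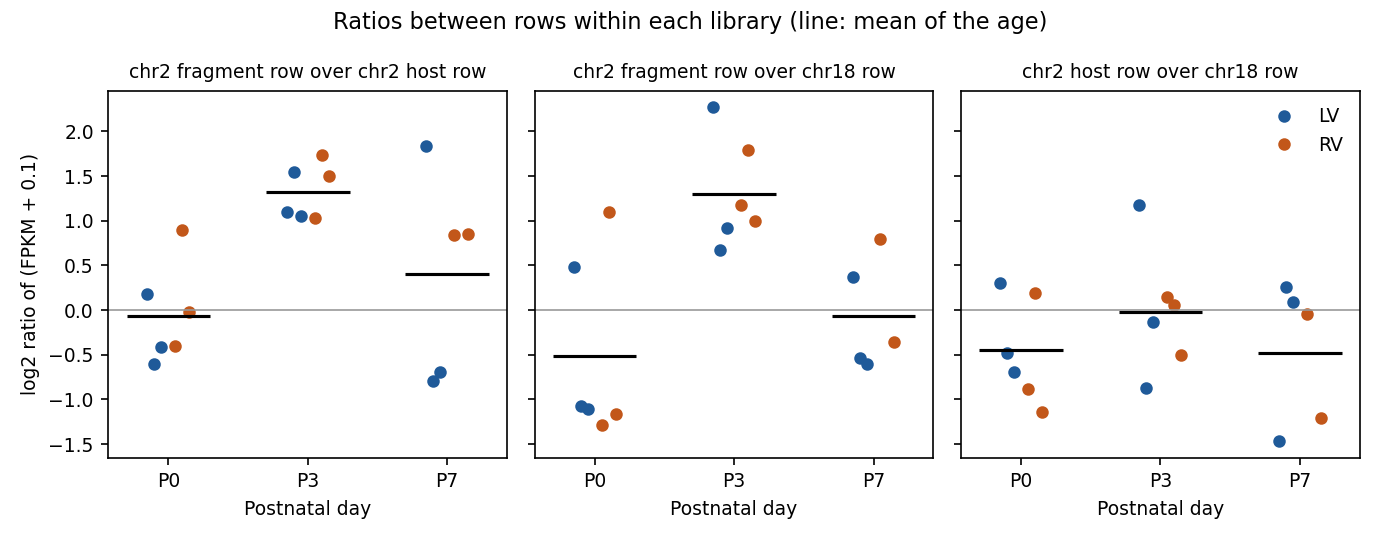
Log2 ratio of (FPKM + 0.1) between 2 rows within each library (vertical axis) at P0, P3 and P7, in LV (blue) and RV (orange), with the mean of each age as a line. The fragment row over the host row separates P3 (1.03 to 1.73) from P0 (-0.60 to 0.90), and the host row over the chromosome 18 row overlaps at all ages.

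Between the ventricles, none of the 3 rows was called. Over the 3 ages the log2 difference, RV minus LV, was 0.08 ± 0.22 in the chromosome 18 row, -0.16 ± 0.26 in the host row and 0.30 ± 0.33 in the fragment row (SE; limma adjusted p = 0.984, 0.960 and 0.922). The background over the ages was 0.00903% of rows, or 1 row, and it was 0% at P0 and 0.00903% at each of P3 and P7, with 0 of 3 rows called at each age. The P0 to P7 change differed between ventricles in 0 of 3 rows and 0% of all rows. Over all ages the LV libraries held 0.0418 to 0.396 FPKM of the host row (median 0.195, n = 9) and the RV libraries 0.0719 to 0.372 (median 0.158, n = 8). The ranges of the other 2 rows overlapped in the same way. The ratio of the fragment row to the chromosome 18 row was higher in RV by 0.21 (exact permutation of ventricle within age, p = 0.580, adjusted 0.580).

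Among other muscle microRNA genes, for which windows were taken from general knowledge of mm9, no row lay at miR-206 and miR-133b, made chiefly in skeletal muscle, and none at miR-499, which sits in an intron of Myh7b. At miR-208a, in the Myh6 gene of the adult fast myosin, 1 row (NONMMUT020950) reached at most 0.0968 FPKM. In the window of miR-208b, in the Myh7 gene of the fetal slow myosin, 4 rows were tested. Their strand and their place relative to the hairpin were not checked, so they are not shown to be host transcripts of miR-208b. From P0 to P7 all 4 were called by limma at an adjusted p under 0.05 in LV, where 11.2% of all tested rows were, and in RV, where 5.55% were, with 3 lower and 1 higher in each ventricle. The highest of them, NONMMUT020952, averaged 36.1 FPKM in LV at P0 and 0.218 at P7, a larger level at P0 and a larger change than in any row at the miR-1 and miR-133a loci.

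The rows outside both windows most like the 2 leading rows across the 17 libraries were also mostly low, and their likeness is a description only. Closest to the fragment row was NONMMUT052682 on chromosome 5 (Pearson r = 0.79 of log2(FPKM + 0.1), mean 0.0795 FPKM), followed by NONMMUT016734 on chromosome 13 (r = 0.78, mean 1.46 FPKM). The next, TCONS_00056662, NONMMUT034096 and NONMMUT041429, had r = 0.75, 0.73 and 0.73. Closest to the chromosome 18 row were TCONS_00046802 and NONMMUT051570 on chromosome 5, NONMMUT004801 on chromosome 10, NONMMUT030732 on chromosome 17 and NONMMUT045772 on chromosome 3, with r between 0.80 and 0.81. The last has the same span as the gene Dnajb4, a heat shock co-chaperone. The tested rows of the 2 loci were less alike: over the same libraries r was 0.22 between host row and fragment row, 0.22 between host row and chromosome 18 row, and -0.21 between fragment row and chromosome 18 row. All of these share the depth of their libraries, and the best of 11079 rows is high by selection.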

How the data were processed

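RNA from 17 mouse ventricle libraries was used. The submitters' processing notes name STAR 2.4.0j and mm10; the counter and annotation, and how values were normalized, are not stated there. Each deposited table lists an ID, a position and a value of unnamed unit, read here as FPKM because low values times length fall on steps constant within a library; TPM would show steps too. Depths come from these steps. Rows with the spans of Mir1a-1hg and Gata5os start 265295 bases from those genes in GRCm38.p6 (mm10), so positions are taken as mm9; none was converted, and 702 rows without a position could not be members. Of all rows, those reaching 0.1 FPKM in 2 libraries or more entered limma 3.58.1 under R 4.3.3 (log2(FPKM + 0.1), 6 group means, variance trend, robust moderation, Benjamini-Hochberg over 11079 rows). Ratios of 2 rows were tested by exact permutation of libraries within ventricle or age. The scripts were tested on simulated data. Every member was named; lead rows had the highest mean at their locus. Members, windows and lists were chosen with earlier results of these data known. Alternatives were other pseudocounts, no filter, median scaling, no variance trend, only the compared groups, a replicate block, sums per position and each library left out. A library set as a term was not run, as no label or header names one.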

Additional observations from a re-analysis of the deposited data

How the results depend on the processing

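No row was called in the 11 comparisons within a ventricle or between ventricles under any alternative run. The call of the chromosome 18 row from P0 to P3 over both ventricles became 0 rows with a pseudocount of 0.01, without a filter, with only the compared groups and with the replicate block, and leaving out single libraries gave 0 to 1 rows, the 1 being the fragment row; the call of the chromosome 18 row was lost under 16 of 20 alternatives (limma adjusted p = 0.0397 to 0.125 over all 20). With the host row at chromosome 2, the ratio to the chromosome 18 row gave -0.0502 (P7 against P0), -0.24 (RV against LV), 0.43 (P3 against P0) and -0.48 (P7 against P3). Without single libraries the RV against LV ratio ran from -0.0474 to 0.40. With the replicate block, which matched libraries of different ages by number alone, the P7 against P3 ratio was -1.40 (exact permutation p = 0.0625, the smallest 5 pairs allow). The P7 against P3 ratio within chromosome 2 was -0.26 with a pseudocount of 1 (exact permutation p = 0.025) and -1.28 to -0.62 without single libraries. The P3 against P0 ratio within chromosome 2 kept its side of 0.05 under 15 of 15 alternatives (0.38 to 2.01). For the single libraries left out and the replicate block this was largely fixed beforehand. All P3 libraries lay above all P0 libraries, so those alternatives are no check of this result. None of these alternatives kept LV and RV libraries of one replicate number together when ages were permuted.

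Uncalled changes that turned sign were those of the fragment row from P0 to P7 over both ventricles (0.22 with median scaling, -0.35 to 0.24 without single libraries) and in RV (-0.25 to 0.89), of the host row from P3 to P7 over both ventricles (0.10 with median scaling, -0.38 to 0.0483 without single libraries) and from P0 to P3 in LV (-0.77 to 0.0797), and of the chromosome 18 row between ventricles (-0.0359 to 0.21). The causes were not tested. Replicate numbers of LV and RV at one age correlated at 0.05 to 0.17, not over 0.1 in every pair, and were not taken as pairs. That limit does not settle whether they share animals. Libraries of different number correlated at -0.13 to 0.03, and each of the 16 libraries with a partner of its own number correlated best with it. Equal numbers of different ages correlated at -0.09 to 0.04. With 0.5 to 12.5 fragments per value in the fragment row and 2 to 23 in the chromosome 18 row, depth limits these levels.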
